A study of Gallus gallus with 16 samples.

Results

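Splicing factors and spliceosome proteins were examined in the pineal glands of chicks exposed to light at different times of the day. The genes were all those whose symbol in the array's probe annotation begins with SRSF, SNRP, HNRNP, SF3A, SF3B, PRPF or LSM, together with TRA2A, TRA2B, U2AF1 and U2AF2. This rule uses names and no measured value. It found 45 genes, covered by 101 of 15609 probes, among 12691 genes and unnamed probes on the array. U2AF2 was not analysed here, since no probe used carries that symbol, and all 45 genes found were measured on enough arrays to be tested. They comprise 11 SR proteins, counting TRA2A and TRA2B, 10 hnRNP proteins, 6 snRNP proteins, 1 of them under the symbol SNRPGP15, 6 genes of the SF3A, SF3B and U2AF group, 8 PRPF proteins and 4 LSM proteins.

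Pre-mRNA splicing removes introns through the spliceosome, which assembles on each intron from small nuclear ribonucleoproteins (snRNPs), particles of a small RNA and its proteins. The U1 snRNP marks the 5′ splice site, U2AF and the U2 snRNP with its SF3A and SF3B complexes mark the branch site and the 3′ splice site, and PRPF proteins are parts of the U4/U6.U5 tri-snRNP or of the complex that activates it. SR proteins bind exons and mostly favour their inclusion, while hnRNP proteins bind nascent RNA and often oppose it, so the balance between these families helps to set which exons a cell keeps. The pineal gland of the chick is itself sensitive to light and makes melatonin at night. None of the LSM genes found here encodes a subunit of the splicing snRNPs: LSM10 and LSM11 are proteins of the U7 snRNP, which trims histone mRNAs, and LSM14A and LSM14B belong to cytoplasmic particles that hold untranslated mRNA.

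All birds were male Rhode Island Red chicks aged 1 week, with 25 birds in each light group, and each RNA sample pooled 5 to 6 pineal glands. In paradigm 1, chicks that received 2 h of light late at night, from ZT22 to ZT24, were compared with chicks kept in the dark, and both were killed at ZT0 (4 pools each; ZT counts hours from lights on). Paradigm 2 set chicks given 2 h of light at the start of the night, from ZT12 to ZT14, against dark controls killed at ZT14 as well (2 pools each). In paradigm 3, chicks on a long day were set against dark controls, again at ZT14 (2 pools each). The long day is 15 h of light and 9 h of dark in the description of the design but 17 h and 7 h in the sample titles. All other birds lived in 12 h of light and 12 h of dark. Time of day goes together with paradigm, since paradigm 1 alone was sampled at ZT0.

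RNA of each pool was amplified and hybridised, in the Cy3-type dye, to 1 of 16 two-colour cDNA arrays together with a common reference of equal amounts of all 16 pools in the Cy5-type dye. The values are the deposited log ratios between both channels, read here as log2. The sources used here do not state the log base or which channel is the numerator. "Higher" and "lower" therefore refer to the deposited ratio, and with the reference as numerator every sign below would turn together. A ratio to a reference made from the same glands carries no absolute level, so genes were not ranked by abundance and the tissue could not be checked against its markers. In pooled glands, fewer cells of a type and less RNA per cell cannot be told apart. The 4 arrays of paradigm 3 had wider spreads than the others: the SD of the log ratio over the 101 probes was 0.672 to 0.926 on them, 0.294 to 0.505 in paradigm 2 and 0.201 to 0.483 in paradigm 1, and over all probes 0.820 to 1.08, 0.391 to 0.510 and 0.249 to 0.547. Slide numbers fall into an early series of 13 arrays and a later one of 3, which holds late-night light pool 4 and dark pools 3 and 4 of paradigm 1.

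**Figure D1:**
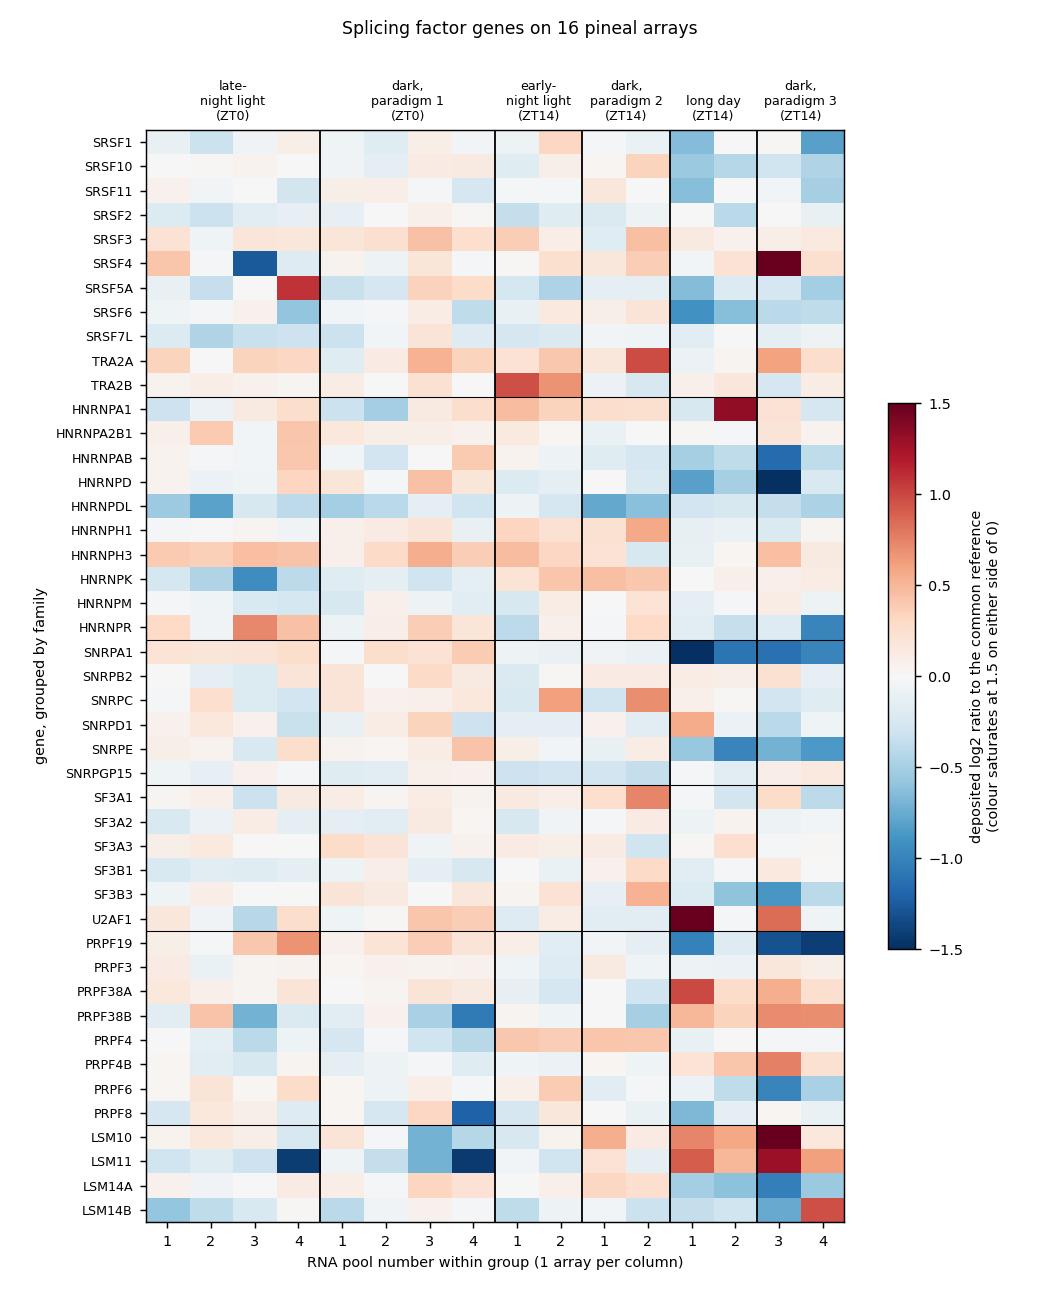
Deposited log2 ratio to the common reference for the 45 genes (down the page, grouped by family) on the 16 arrays (across, grouped by treatment), with red above and blue below 0 and colour saturating at 1.5. Most cells are pale in paradigms 1 and 2; the strongest colours lie in the paradigm 3 columns, and TRA2B stands out in both early-night light pools.

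Late-night light left the splicing genes close to their dark controls. None of the 45 passed a Benjamini-Hochberg adjusted p of 0.05 in the limma fit over all 16 arrays, the threshold behind the word called here, and 0.0% of the 12532 genes tested did; 1 of the 45 had an unadjusted p under 0.05, against 4.21% of all genes. The median difference over the 45 was -0.04 on the log2 scale, with 19 of them positive, beside -0.00395 and 49.1% positive over all genes. Differences ran from -0.32 to 0.25 with a median standard error of 0.15. The 95% interval of the difference stayed inside a 2-fold change in either direction for 44 of the 45, the exception being SRSF4.

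HNRNPK, an hnRNP protein that binds C-rich RNA, had the smallest p in this comparison. Its ratio was -0.26, -0.46, -0.93 and -0.39 in the late-night light pools, against -0.18, -0.14, -0.30 and -0.15 in the dark. Light pool 3 was the lowest of all, and light pool 1 lay above dark pool 3, so the groups overlapped. The difference was -0.32 ± 0.15 (± standard error of the limma fit throughout), with an unadjusted p of 0.0451 and an adjusted p of 1.00.

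SRSF7L, listed in RefSeq with SFRS7 as a synonym, had -0.20, -0.45, -0.33 and -0.31 in late-night light, against -0.32, -0.04, 0.20 and -0.19 in the dark. Dark pool 1 fell within the light pools. For SRSF2, the SR protein also called SC-35, the ratios were -0.20, -0.32, -0.15 and -0.12 in light, against -0.12, -0.01, 0.08 and 0.02 in the dark, with the groups touching at -0.12. The differences were -0.23 ± 0.13 for SRSF7L and -0.19 ± 0.13 for SRSF2, and neither was called. With the slide series as a block these values were -0.21 and -0.17, and HNRNPK came to -0.31; within the early series they were -0.15, -0.16 and -0.39, and within the later one, where a single light pool faces 2 dark pools, -0.31, -0.17 and -0.17.

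Early-night light gave the largest light-linked difference of the whole set, that of TRA2B, an SR-like protein that binds purine-rich exon sequences and promotes exon inclusion. TRA2B had ratios of 0.97 and 0.68 in the early-night light pools, against -0.09 and -0.24 in their dark controls. Both light pools lay above the other 14 arrays, which ran from -0.26 to 0.22, and late-night light left the gene at 0.04 to 0.10. The difference was 0.99 ± 0.18, a 1.98-fold higher ratio in light, with an unadjusted p of 8.9e-05 and an adjusted p of 0.171. It thus missed the threshold as tested. It passed after quantile normalization between arrays (1.21, adjusted p = 0.0354) and after scaling each array to a common SD (1.32, adjusted p = 0.0274), and over all 12 alternatives the adjusted p ran from 0.0274 to 0.881. TRA2B rests on a single probe.

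HNRNPDL, an hnRNP D-like protein, came next. Its ratio was -0.08 and -0.25 in early-night light, against -0.77 and -0.63 in the dark, without overlap. The difference was 0.54 ± 0.20, with an unadjusted p of 0.0193 and an adjusted p of 1.00, and each of its 2 probes gave a positive difference. HNRNPH3 had 0.46 and 0.32 in light, against 0.22 and -0.23 in the dark, a difference of 0.40 ± 0.20 that was not called; without dark pool 2 it was 0.17.

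No splicing gene was called for early-night light, beside 0.00798% of all genes, and 2 of the 45 had an unadjusted p under 0.05, beside 4.2%. The median difference was -0.06, with 16 of the 45 positive, beside 0.000383 and 50.1% over all genes. With 2 pools a group the intervals were wider than in paradigm 1, and 8 of the 45 reached a 2-fold change in at least one direction.

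The long day was set against dark controls of the same paradigm. Again no splicing gene was called, although 2.94% of all genes were, and 2 of the 45 had an unadjusted p under 0.05, beside 17.8% of all genes. The median difference was -0.03, with 20 of the 45 positive, beside -0.00685 and 49.2% over all genes. Intervals of 12 of the 45 reached a 2-fold change. Leaving out any 1 of the 4 pools raised the count of splicing genes called. Each such fit leaves a group with a single pool, whose spread is taken from the other groups. Over all genes the count also rose without dark pool 4, as given below under the dependence on processing. These changes show how far the calls depend on single pools and are not read as a result about splicing genes.

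PRPF19, the ubiquitin ligase at the core of the complex that activates the spliceosome, had -1.01 and -0.20 in long-day pools, against -1.31 and -1.41 in the dark. Both long-day pools were higher than both controls but lay far apart. The difference was 0.76 ± 0.27 with an adjusted p of 0.155, and 1.17 without long-day pool 1, where a single long-day pool remains. PRPF6, a bridging protein of the tri-snRNP, had -0.09 and -0.38 on the long day, against -0.99 and -0.48 in the dark. Its difference was 0.50 ± 0.20 (adjusted p = 0.214), and 0.75 without dark pool 4, where a single dark pool remains. SRSF4, an SR protein, had -0.04 and 0.22 on the long day, against 1.62 and 0.25 in the dark. Dark pool 3 alone stood apart: the difference was -0.84 ± 0.46 with it and -0.16 without it.

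**Figure D2:**
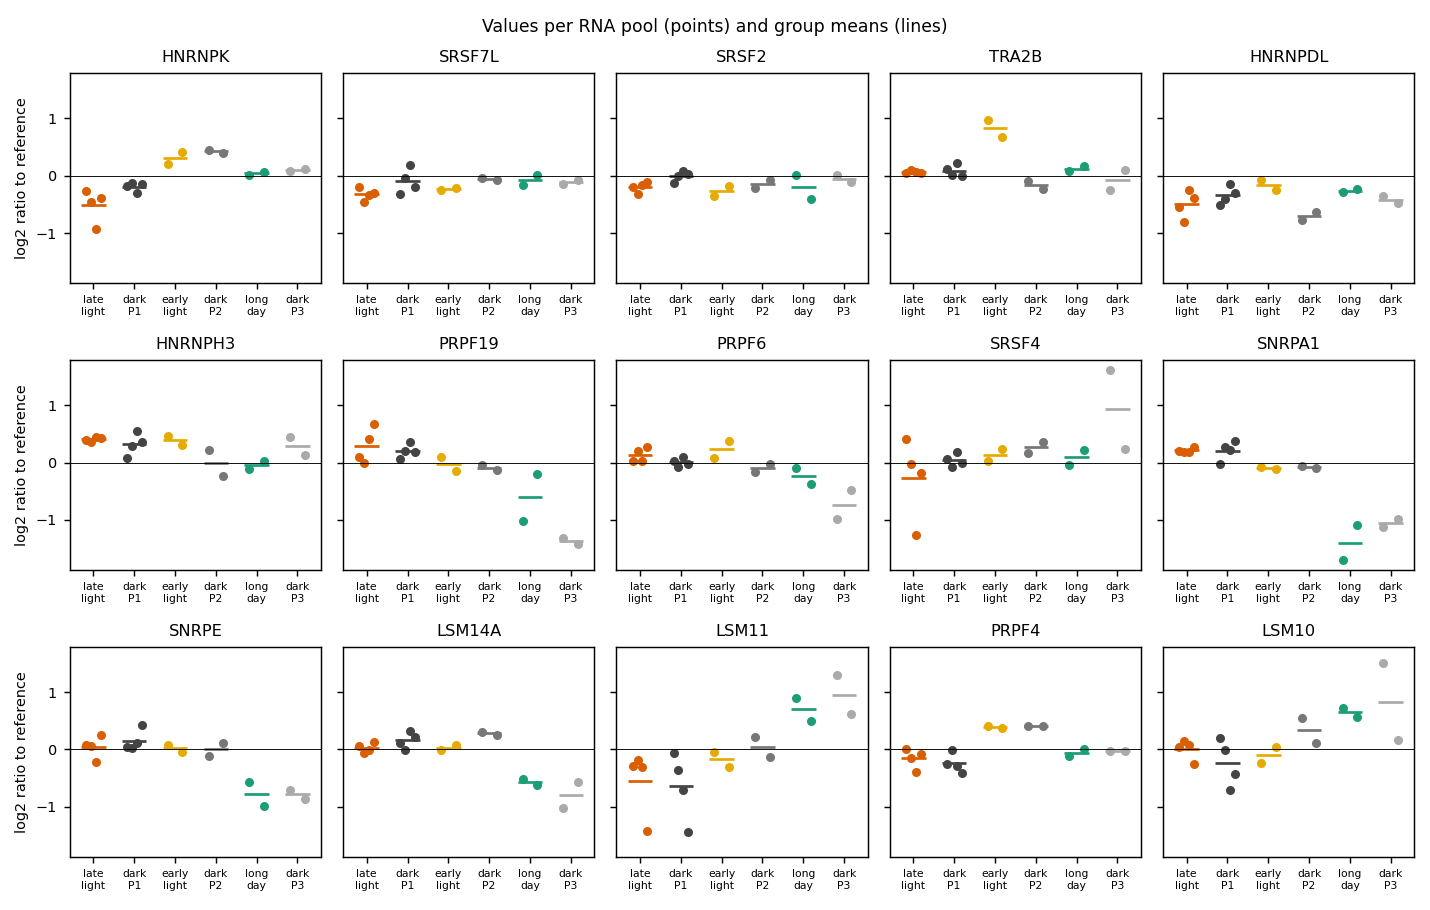
Deposited log2 ratio to the reference (vertical axis, shared) for the 15 genes named by the smallest p-values, with 1 point per RNA pool and a line at each group mean; P1, P2 and P3 are the paradigms. TRA2B is high in both early-night light pools, and SNRPA1, PRPF19, SNRPE and LSM14A are lowest in the paradigm 3 groups.

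Averaging both ZT14 paradigms, light at ZT14 against darkness, again called none of the 45, beside 0.295% of all genes, and 3 had an unadjusted p under 0.05, beside 12.3% of all genes. Those were TRA2B at 0.59 ± 0.13 (adjusted p = 0.0666), PRPF6 at 0.41 ± 0.14 (adjusted p = 0.267) and HNRNPDL at 0.35 ± 0.14 (adjusted p = 0.343). Without dark pool 4 of paradigm 3, which leaves a single dark pool in that paradigm, the differences were 0.68 for TRA2B and 0.54 for PRPF6. Calls over all genes rose without that pool too, as given below under the dependence on processing. PRPF6 had 0.08 and 0.38 in early-night light, against -0.16 and -0.03 in the dark, so its light pools were above their own controls in both ZT14 paradigms. TRA2B did not separate in both. On the long day it had 0.08 and 0.16, against -0.26 and 0.11 in the dark. That difference was 0.20, beside 0.99 under early-night light. The median over the 45 was -0.07.

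Whether light acted differently late and early in the night was tested as the difference between both effects. No splicing gene was called, beside 0.0399% of all genes, and 2 had an unadjusted p under 0.05, beside 4.12%. TRA2B had a late-night effect 1.01 ± 0.22 below its early-night effect (adjusted p = 0.268), and HNRNPDL one 0.70 ± 0.25 below it (adjusted p = 1.00).

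By family, the SR proteins had 8 of 11 differences below 0 under late-night light, 8 of 11 under early-night light and 8 of 11 on the long day, with medians of -0.06, -0.12 and -0.04. The SF3A, SF3B and U2AF genes, which recognise the branch site and 3′ splice site, were all below 0 under late-night light, from -0.19 to -0.06, but 2 of the 6 were above 0 under early-night light and 4 of the 6 on the long day. Of the 8 PRPF proteins, 7 were above 0 under late-night light, 4 under early-night light and 3 on the long day. The hnRNP proteins split 5 to 5 each time. The snRNP proteins, which form the Sm core and the U1 and U2 particles, had 2 of 6 above 0 under late-night light, 2 under early-night light and 4 on the long day. All 4 LSM genes were below 0 under early-night light, against 2 of 4 under late-night light. No gene of any family passed the threshold in these 3 comparisons, and no shift of a family as a whole was tested.

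**Figure D3:**
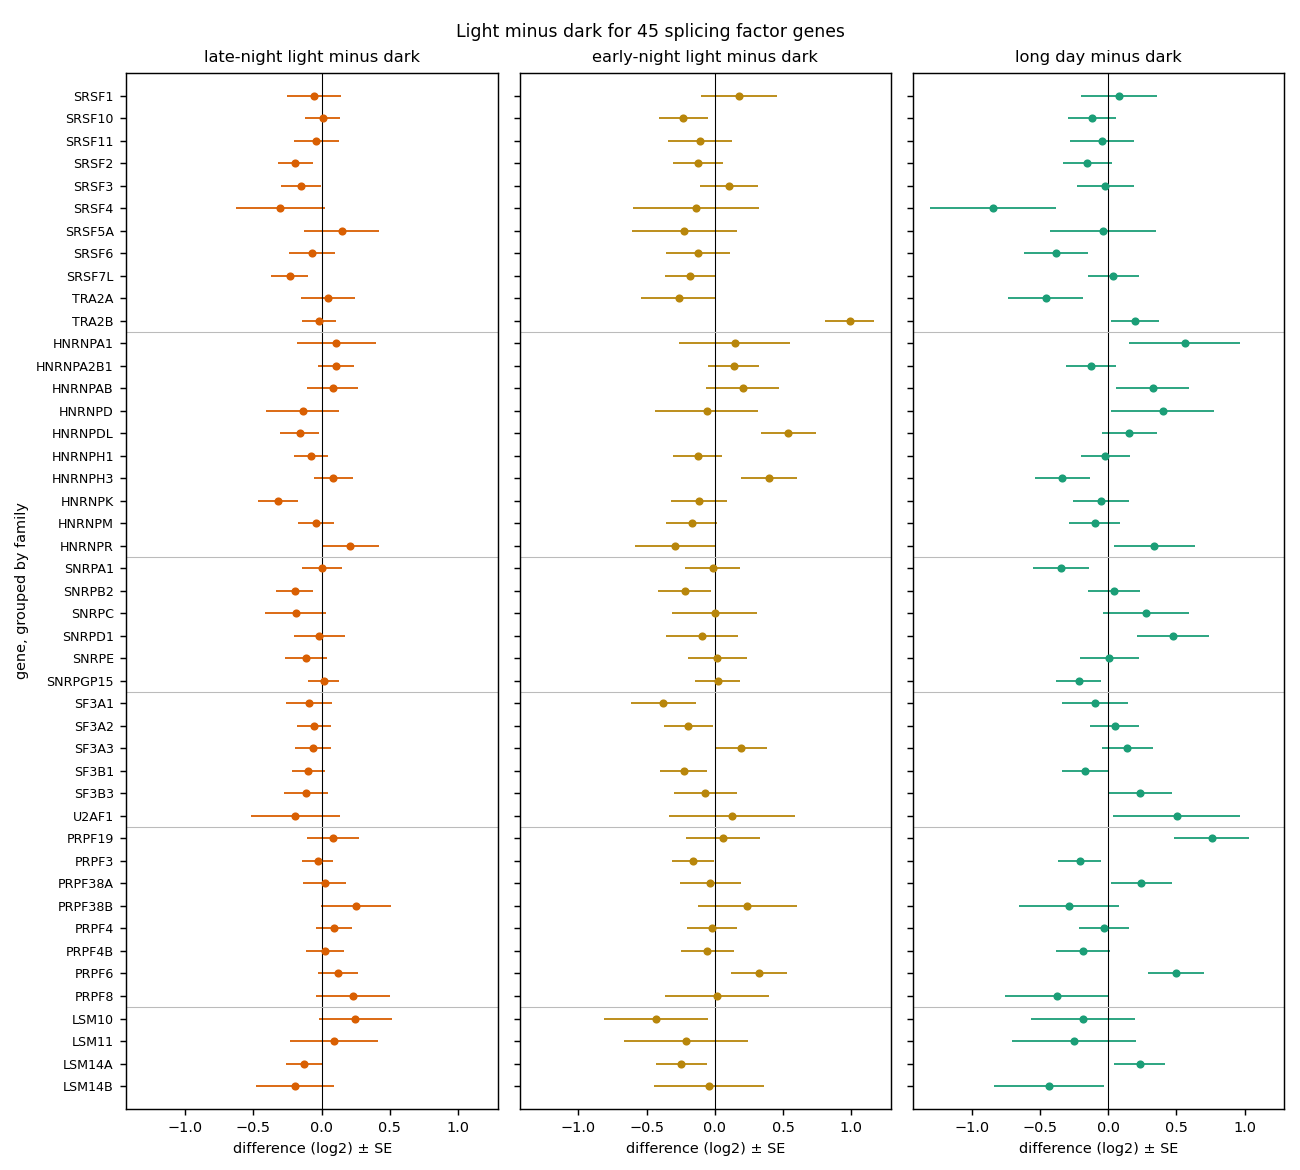
Light minus dark for the 45 genes, on the log2 scale with bars of 1 standard error, in a panel for each paradigm. Points lie around 0 in each panel, and TRA2B at 0.99 under early-night light is the farthest from 0 in units of its standard error.

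More genes were called between ZT0 and ZT14 pools than between light and dark pools, in a contrast where paradigm changes together with time of day. In dark pools, ZT0 of paradigm 1 was set against the mean of both ZT14 groups, which called 8 of the 45 splicing genes (17.8%), beside 19.0% of all genes. Of the 8, 4 were higher at ZT0, beside 8.61% of all genes, and 4 were lower, beside 10.4%. The share among splicing genes was thus near that of the array as a whole. The median difference over the 45 was 0.06, beside -0.03 over all genes. The 4 that were higher are SNRPA1, PRPF19, SNRPE and LSM14A, and the 4 that were lower are LSM11, PRPF4, HNRNPK and LSM10. Each of the 4 lower genes rests on a single probe.

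SNRPA1, the A′ protein of the U2 snRNP, had -0.03, 0.27, 0.22 and 0.38 in the ZT0 dark pools. At ZT14 it had -0.05 and -0.10 in paradigm 2 and -1.12 and -0.98 in paradigm 3. All ZT0 pools lay above all ZT14 pools, but paradigm 2 lay just beneath ZT0 and paradigm 3 far below it. The difference was 0.77 ± 0.14 (adjusted p = 0.00365). It was 0.28 with an adjusted p of 0.597 against paradigm 2 alone and 1.26 with an adjusted p of 0.000185 against paradigm 3 alone.

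PRPF19 had 0.07, 0.20, 0.37 and 0.19 at ZT0 in the dark, against -0.04 and -0.14 in paradigm 2 and -1.31 and -1.41 in paradigm 3 at ZT14. The order was that of SNRPA1, with no overlap. Its difference was 0.93 ± 0.19 (adjusted p = 0.00594), made up of 0.29 against paradigm 2 and 1.57 against paradigm 3. The 2 probes of PRPF19 disagreed on the order of ZT0 and paradigm 2. One had dark means of 0.55 at ZT0, -0.28 in paradigm 2 and -1.90 in paradigm 3. The other had -0.14, 0.11 and -0.83, so only paradigm 3 was lowest on both.

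SNRPE, a protein of the Sm core shared by the spliceosomal snRNPs, had 0.05, 0.03, 0.11 and 0.43 at ZT0 in the dark, against -0.11 and 0.11 in paradigm 2 and -0.71 and -0.86 in paradigm 3. Paradigm 2 overlapped ZT0, and paradigm 3 did not. The difference was 0.55 ± 0.15 (adjusted p = 0.0251), with 0.15 against paradigm 2 and 0.94 against paradigm 3.

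LSM14A had 0.10, -0.01, 0.33 and 0.22 at ZT0 in the dark, against 0.31 and 0.25 in paradigm 2 and -1.03 and -0.56 in paradigm 3. The difference was 0.42 ± 0.13 (adjusted p = 0.0432), but it turned to -0.12 against paradigm 2 alone and was 0.95 against paradigm 3 alone.

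LSM11 had -0.07, -0.36, -0.71 and -1.44 at ZT0 in the dark, against 0.22 and -0.14 in paradigm 2 and 1.29 and 0.61 in paradigm 3 at ZT14. The difference was -1.14 ± 0.32 (adjusted p = 0.0259). LSM10, its partner in the U7 snRNP, had 0.20, -0.02, -0.71 and -0.43 at ZT0, against 0.55 and 0.12 in paradigm 2 and 1.51 and 0.16 in paradigm 3, a difference of -0.82 ± 0.27 (adjusted p = 0.0477). For both genes, the 3 paradigm 1 arrays of the later slide series were the lowest of that paradigm, the light pool among them. With the ZT0 dark pools of the early series alone, the differences were -0.71 for LSM11 and -0.49 for LSM10, with adjusted p of 0.136 and 0.389.

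PRPF4, a tri-snRNP protein, and HNRNPK followed another order. PRPF4 had -0.25, -0.02, -0.30 and -0.41 at ZT0 in the dark, against 0.42 and 0.40 in paradigm 2 and -0.02 and -0.02 in paradigm 3. HNRNPK had -0.18, -0.14, -0.30 and -0.15 at ZT0, against 0.45 and 0.40 in paradigm 2 and 0.07 and 0.11 in paradigm 3. Here paradigm 2 was farther from ZT0 than paradigm 3 was. The differences were -0.44 ± 0.13 for PRPF4 (adjusted p = 0.0320) and -0.45 ± 0.15 for HNRNPK (adjusted p = 0.0459); against paradigm 2 alone they were -0.65 and -0.61, and against paradigm 3 alone -0.22 and -0.28, and none of these 4 was called.

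The count depended on which paradigm supplied the ZT14 controls. Against paradigm 2 alone limma called none of the 45 splicing genes, with 2 at an unadjusted p under 0.05, and 0.0319% of all genes. Against paradigm 3 alone it called 13, 9 higher and 4 lower at ZT0, and 34% of all genes. The higher ones included HNRNPD at 1.25 ± 0.33, HNRNPAB at 0.78 ± 0.23, HNRNPR at 0.73 ± 0.26, PRPF6 at 0.75 ± 0.18 and SF3B3, a subunit of the SF3B complex, at 0.77 ± 0.20. Among the lower ones were PRPF38B at -1.12 ± 0.32 and PRPF4B, a kinase of the spliceosome, at -0.60 ± 0.17. The 2 probes of HNRNPR went opposite ways. One had dark means of -0.08 at ZT0 and 0.43 in paradigm 3, the other 0.36 and -1.62. The 4 probes of SF3B3 had 0.29 and -1.11, 0.13 and -1.29, 0.14 and -0.19, and -0.06 and 0.03. With the ZT0 dark pools of the early slide series alone, a comparison chosen after seeing the data, none was called, with 6 at an unadjusted p under 0.05, and 4.85% of all genes were. In paradigm 1 the 3 arrays of the later series lay outside the range of the other 5 for 10 of the 45 (22.2%), beside 19.6% of all genes. Single pools moved the count too: it was 5 without ZT0 dark pool 1, 2 without pool 3 and 2 without pool 4, 2 and 4 without pools 1 and 2 of paradigm 2, and 3 and 12 without pools 3 and 4 of paradigm 3. The shares of all genes for these single-pool counts are not given here, so the counts describe stability only. Over 19 alternatives SNRPA1 was called in 17, PRPF19 in 17, SNRPE in 11, LSM11 in 11, PRPF4 in 7, LSM10 in 6, LSM14A in 6 and HNRNPK in 4. Time of day and paradigm cannot be told apart in this design.

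**Figure D4:**
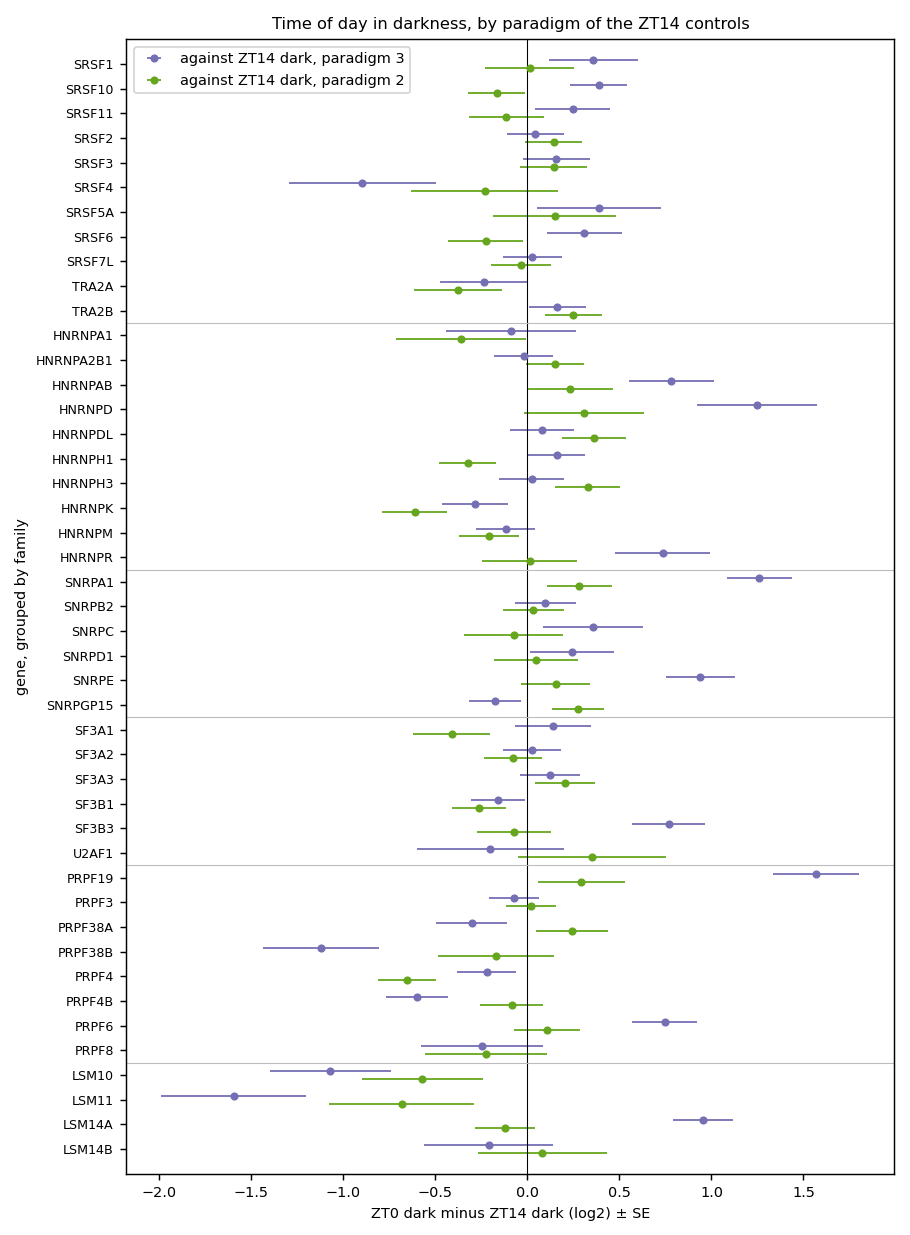
Difference between ZT0 dark pools of paradigm 1 and ZT14 dark pools of paradigm 3 (purple) or paradigm 2 (green) for the 45 genes, on the log2 scale with bars of 1 standard error. SNRPA1, PRPF19, SNRPE and LSM14A sit between -0.12 and 0.29 against paradigm 2 and between 0.94 and 1.57 against paradigm 3.

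The light pools gave the same contrast without sharing an array with the dark one, although both rest on the same reference and the same paradigms. Late-night light pools against the mean of both ZT14 light groups called 2 of the 45, beside 11.7% of all genes, 1 higher (5.36% of all genes) and 1 lower (6.35%). SNRPA1 was higher at ZT0, with 0.21, 0.18, 0.19 and 0.26 in late-night light, against -0.08 and -0.11 in early-night light and -1.70 and -1.09 on the long day, a difference of 0.96 ± 0.14 (adjusted p = 0.00259). HNRNPK was lower, with the 4 late-night values given above against 0.20 and 0.41 in early-night light and 0.01 and 0.07 on the long day, a difference of -0.68 ± 0.15 (adjusted p = 0.0117). The count was 4 without long-day pool 2. Against early-night light alone none of the 45 was called by limma, with 3 at an unadjusted p under 0.05, and against the long day alone 8 were, beside 0.0878% and 27% of all genes. Across the 45 genes the ZT0 minus ZT14 differences in darkness and in light had a Pearson r of 0.774, and across all genes 0.727, as a description of 2 sets of arrays; with paradigm 2 alone the values were 0.499 and 0.440, and with paradigm 3 alone 0.836 and 0.754.

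Both ZT14 dark groups carry the same label of light, time, age and sex, and yet differed. In paradigm 3 against paradigm 2 darkness, 7 of the 45 splicing genes were called (15.6%), beside 20.6% of all genes. All 7 were lower in paradigm 3, beside 9.4% of all genes lower and 11.2% higher. They were PRPF19 at -1.28 ± 0.27, LSM14A at -1.07 ± 0.19, SNRPA1 at -0.98 ± 0.20, SF3B3 at -0.84 ± 0.23, SNRPE at -0.78 ± 0.22, PRPF6 at -0.64 ± 0.20 and SRSF10, an SR protein that represses splicing when dephosphorylated, at -0.55 ± 0.18, with adjusted p from 0.00205 to 0.0422. The count changed without dark pool 2 of paradigm 2, a fit that leaves a single dark pool in that paradigm. Quantile normalization and scaling to a common SD each left 0 of the 45 called by limma, with 10 and 7 at an unadjusted p under 0.05. Over all genes the calls also fell after quantile normalization, as given below under the dependence on processing. These counts describe stability only and are not read as a result about splicing genes. The treated birds of the same paradigms gave the same order for all 7, with both long-day pools below both early-night light pools. Paradigm 3 minus paradigm 2 had the same sign in darkness and in light for 33 of the 45 (73.3%), beside 74.6% of all genes. The order of these 7 is therefore not read as particular to splicing genes. SNRPE had -0.57 and -0.98 on the long day and 0.08 and -0.05 in early-night light, and its 2 probes differed, as given below. The gap was narrow for PRPF19, with -1.01 and -0.20 on the long day and 0.10 and -0.15 in early-night light.

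The wide spread of paradigm 3 did not fall evenly on the probes of these genes. The array combines several clone sets, told apart by the start of the probe name. Averaged over the 4 arrays of paradigm 3, 12 of the 101 probes lay more than 1 log2 unit from 0, compared with 0 of 101 over paradigm 2 and 0 of 101 over paradigm 1. All 12 were among the 66 probes of the C0004 set (18.2%, beside 23.4% of all probes of that set), and 11 of the 12 were negative. The direction was not counted over all probes of that set, so it cannot be called particular to splicing genes. The DKFZ426 set had 0 of 7 such probes, the DT40subNB set 0 of 11 and the Pat set 0 of 17, beside 11.6%, 8.51% and 3.13% of all their probes.

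Probes of one gene often differed in paradigm 3. Among the 26 splicing genes with more than 1 probe, the median SD between probes was 0.565 in paradigm 3, 0.291 in paradigm 2 and 0.235 in paradigm 1. LSM14A shows this most directly, because 2 of its 5 probes carry the same sequence entry: one had -0.10 and -0.72 on the long day, against -2.00 and -0.39 in paradigm 3 darkness, and the other -2.33 and -2.59, against -3.28 and -2.28. Its other 3 probes stayed between -0.21 and 0.26 on these arrays. SNRPE had -1.19 and -1.81 on the long day, against -1.27 and -1.81 in darkness, on one probe, and 0.06 and -0.16, against -0.15 and 0.09, on the other. SRSF10 had 1 probe at -1.91 and -1.35, against -1.82 and -1.78, and 3 others between -0.25 and 0.31. In SNRPA1, by contrast, all 6 probes had a negative mean over paradigm 3. All 6 belong to the C0004 set, however, so the gene has no probe of another set for comparison. Direction was also uneven for light: all probes of a gene shared one sign in 7 of the 26 genes in the comparison of paradigm 1, in 11 in that of paradigm 2 and in 10 in that of paradigm 3. Probes of SR and hnRNP genes can also capture RNA of close relatives, which these cDNA arrays do not separate. RefSeq lists HNRNPA3 as a synonym of HNRNPA1 and HNRNPH2 as one of HNRNPH1.

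**Figure D5:**
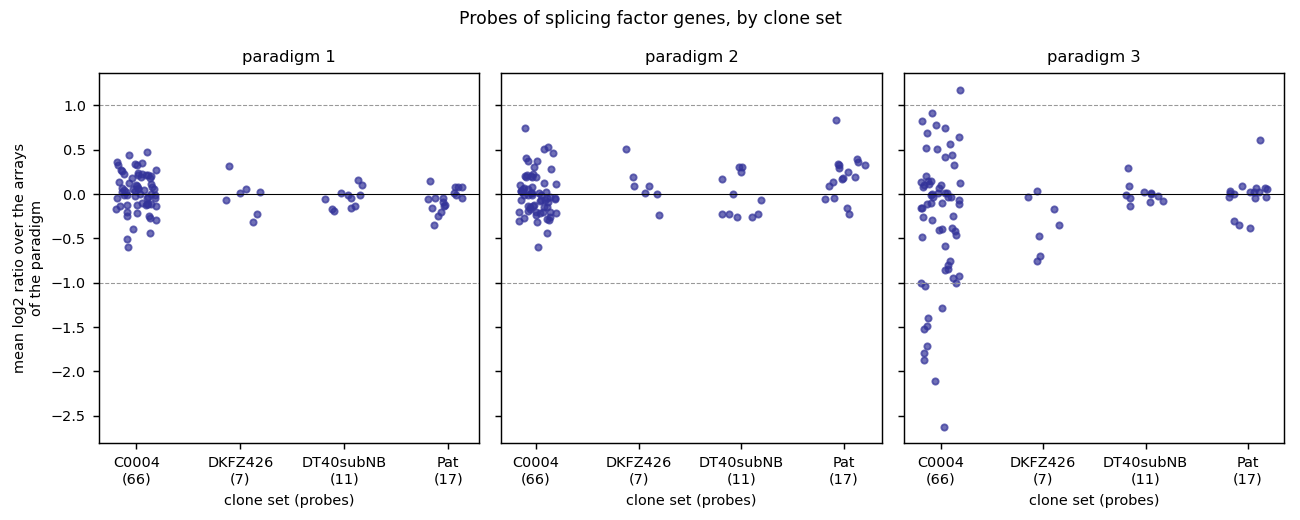
Mean log2 ratio over the arrays of each paradigm for the 101 probes, by clone set with the number of probes in brackets; dashed lines mark 1 log2 unit. In paradigm 3, 12 probes of the C0004 set lie beyond the lines, and 0 of the other sets do.

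Related genes outside the naming rule were counted from 4 lists. The list of snRNP assembly and the exon junction also holds genes of mRNA export and of mRNA decay, XRN1 among them. No gene of these lists was called by limma under late-night or early-night light, where 3 and 3 of 40 spliceosome partners, 3 and 3 of 37 splicing regulators, 0 and 1 of 6 splicing kinases and phosphatases, and 1 and 0 of 23 genes of snRNP assembly and the exon junction had an unadjusted p under 0.05. Of 40 measured spliceosome partners, the long day called 2: the helicase DHX8, which releases the spliced mRNA, at -1.51 ± 0.26 (adjusted p = 0.00932) and SYF2, a protein of the activated spliceosome, at 1.73 ± 0.40 (adjusted p = 0.0383). DHX8 had -0.83 and -0.39 on the long day, against 1.36 and 0.45 in the dark, and SYF2 had -0.49 and -0.56, against -1.61 and -2.89; neither overlapped. Of 37 splicing regulators, 1 was called, RBM25, with -1.34 and -0.18 on the long day against -2.05 and -2.36 in the dark (1.45 ± 0.36, adjusted p = 0.0460). The long day called 2.94% of all genes, so 2 of 40 and 1 of 37 are near the share of the array as a whole. With array weights, quantile normalization, scaling or the compared arrays only, the long day called no gene of the array. DHX8, SYF2 and RBM25 were therefore not called in any of those settings. None of 6 splicing kinases and phosphatases was called for the long day, and none of 23 genes of snRNP assembly, the exon junction, mRNA export and decay. Of these, 0 and 3 had an unadjusted p under 0.05. Medians of these lists on the long day were 0.02, -0.04, -0.01 and 0.09. RBM3, an RNA-binding protein known for its induction by cold, was the regulator nearest the threshold for light at ZT14: it had 0.41 and 0.36 in early-night light, against -0.05 and -0.12 in the dark, and 0.04 and 0.01 on the long day, against -0.50 and -0.75 in the dark, a mean difference of 0.56 ± 0.13 (adjusted p = 0.0988). It was named after its values were seen.

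For ZT0 against ZT14 in darkness, 3 of the 4 lists had called genes, in both directions, at shares around the 19.0% of all genes. Of the partners 5 of 40 were called, 2 higher at ZT0 and 3 lower, led by RNPC3, a protein of the minor spliceosome, at -0.97 ± 0.18, and PHF5A, a subunit of SF3B, at 1.27 ± 0.31. RNPC3 had 0.33 and 0.16 in paradigm 2 and 1.02 and 1.30 in paradigm 3, above its ZT0 pools in both. PHF5A had -0.44 and 0.05, which overlapped ZT0, and -1.31 and -1.98. Of the regulators 9 of 37 were called, 5 higher and 4 lower, led by NONO, a paraspeckle protein, at 0.82 ± 0.15, RBM25 at 1.27 ± 0.25 and ILF2 at 0.54 ± 0.14. NONO and RBM25 overlapped between ZT0 and paradigm 2. In paradigm 2 NONO had -0.08 and -0.03 and RBM25 -0.24 and 0.07. Paradigm 3 had -1.35 and -1.79 for NONO and -2.05 and -2.36 for RBM25. ILF2 lay below its ZT0 pools in both, at -0.20 and -0.15 in paradigm 2 and -0.71 and -0.98 in paradigm 3. None of the 6 kinases and phosphatases was called, with 1 at an unadjusted p under 0.05. Of the assembly and exon junction list 5 of 23 were called, 4 higher and 1 lower. The lower one was XRN1, one of its mRNA decay genes, at -0.85 ± 0.27. The higher ones were led by MAGOH and EIF4A3, core proteins of the exon junction complex, at 0.73 ± 0.14 and 0.66 ± 0.15. With them was GEMIN5, which delivers small nuclear RNAs to the SMN complex, at 0.67 ± 0.16. EIF4A3 had 0.15 and 0.01 in paradigm 2, which overlapped ZT0, and -1.12 and -0.95 in paradigm 3. MAGOH and GEMIN5 lay below their ZT0 pools in both ZT14 paradigms. Medians were 0.05, 0.01, 0.16 and 0.04. In light the counts were 5 of 40, 3 of 37, 0 of 6 (1 at an unadjusted p under 0.05) and 5 of 23, beside 11.7% of all genes, including GEMIN5 at 1.00 ± 0.16, SRRM1, an SR-related coactivator, at 1.11 ± 0.18, and CRNKL1, a protein of the activated spliceosome, at -0.68 ± 0.13. In paradigm 3 against paradigm 2 darkness they were 8 of 40, 8 of 37, 3 of 6 and 4 of 23, beside 20.6% of all genes, including the helicase DHX15 at -3.30 ± 0.47, NONO at -1.52 ± 0.21, PPP1CC, a protein phosphatase, at -0.995 ± 0.27, and EIF4A3 at -1.11 ± 0.22.

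Mean levels of markers of other cells also differed in some of these contrasts. Under late-night light 1 of 8 lymphoid, 0 of 8 macrophage and 1 of 3 erythroid markers had a positive difference, with none called by limma and 2, 2 and 1 at an unadjusted p under 0.05. The mean ratio of the lymphoid list was -0.10 to -0.05 in late-night light pools, against 0.02 to 0.60 in the dark, and that of the erythroid list -0.26 to -0.16, against 0.03 to 0.41, without overlap in either. CD79B, the lymphoid marker with the smallest p, had -0.07 and -0.15 in dark pools 1 and 2, and 0.84 and 1.78 in pools 3 and 4. CXCR4 was instead highest in dark pool 2, at 0.48. Dark pools 3 and 4 belong to the later slide series, as does late-night light pool 4, where CD79B was at -0.36. The part of that series here was not tested. Of the 3 erythroid genes, named here after their values were seen, HBBA, a beta globin gene, had the widest gap, with -0.52, -0.64, -0.93 and -0.50 in light, against 0.55, 0.22, 0.34 and 1.01 in the dark (-1.18 ± 0.25, adjusted p = 0.642). TFRC, the transferrin receptor, was instead at -0.17 to 0.25 in light, against -0.25 to -0.04 in the dark, and both TFRC and RHAG overlapped between groups. The macrophage list ran from -0.33 to 0.06 in light, against -0.0031 to 0.25 in the dark. Under early-night light 11 of 14 proliferation markers had a positive difference, with none called and 1 at an unadjusted p under 0.05, and their mean was 0.07 to 0.17 in light, against -0.10 to 0.02 in the dark. In the dark, ZT0 against ZT14 called 1 of 5 pineal, 0 of 8 lymphoid, 0 of 8 macrophage, 2 of 3 erythroid and 1 of 14 proliferation markers, beside 19.0% of all genes. The long day called 1 pineal marker, the transcription factor NEUROD1 at -1.67 ± 0.41 (adjusted p = 0.0452), and 1 proliferation marker, the spindle protein NUSAP1 at -0.98 ± 0.21 (adjusted p = 0.0250), beside 2.94% of all genes. Neither was called with array weights, quantile normalization, scaling or the compared arrays only, where the long day called no gene at all. In light, ZT0 against ZT14 called 2 pineal, 1 erythroid and 1 proliferation marker, beside 11.7%, and paradigm 3 against paradigm 2 darkness called 1 pineal, 2 erythroid and 3 proliferation markers, beside 20.6%. No lymphoid or macrophage marker was called by limma in these 3 contrasts, with 0, 1 and 2 lymphoid and 1, 0 and 2 macrophage markers at an unadjusted p under 0.05. Their part in the results above was not tested.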

How the data were processed

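RNA of 16 pools of chick pineal glands was measured on two-colour cDNA arrays, 1 array a pool. The authors deposited 1 value per probe and array, read here as the log2 ratio of both channels; the sources used here give neither its log base, numerator, background correction nor normalization, and no dyes were swapped. Of 15769 probes, 160 control spots were removed. Of the remaining 15609, 9628 had 1 gene symbol in the platform annotation, none had several and 5981 had none. Probes of a symbol were averaged, unnamed probes were kept singly, and a gene was tested if each group had it on 2 or more arrays, which left 12532. Of the 45 splicing genes, 26 had more than 1 probe and 19 had 1, and all 45 gene identifiers matched the RefSeq gene table.

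All 16 arrays entered a single limma 3.58.1 fit (R 4.3.3), with 1 mean per group, a constant prior, no block, moderated standard errors and Benjamini-Hochberg adjustment over all genes tested, and genes were called at an adjusted p under 0.05. The fit gives each gene the same spread in all groups. The SD of deviations from group means, however, was 0.379 on the long day and 0.471 in paradigm 3 darkness. In paradigm 2 it was 0.224 in light and 0.258 in darkness. Standard errors and p-values may thus be too small for paradigm 3 contrasts and too large for early-night and late-night light. The 95% intervals use the moderated standard error and are unadjusted. The fit was checked on simulated data with known changes. It called 60.5% of genes changed by 1 log2 unit for late-night light and 54.5% for ZT0 against ZT14 in darkness. For early-night light it called only 16.5%, so most changes of that size were missed there. With changes of 2 log2 units the shares were 94%, 93% and 77.5%, in the same order. The simulation gave each gene the same spread in all groups. Its shares therefore do not measure how many real changes were missed where a paradigm had a narrower or wider spread. Pools are separate glands of birds in 1 experiment, and a p-value here covers only the variation among such pools. The arrays carry no read depth, and their number limits the precision.

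Values on every array are given for genes called in a light comparison, for the 3 with the smallest p in each light comparison, and for the 4 with the smallest p in each direction among those called between ZT0 and ZT14 in darkness; of related lists, up to 3 called genes per comparison are named. The splicing genes and all lists were chosen with earlier results of these data known. Of the genes listed, those measured were 40 of 68 spliceosome partners, 37 of 66 splicing regulators, 6 of 15 splicing kinases and phosphatases, 23 of 41 genes of snRNP assembly and the exon junction, and 5 of 17 pineal, 8 of 17 lymphoid, 8 of 15 macrophage, 3 of 13 erythroid and 14 of 19 proliferation markers. The alternatives were array weights, a trended robust prior, quantile normalization, scaling to a common SD, the compared arrays only, 1 probe per gene, genes measured on all arrays, leaving out each pool, a pool-number block, the slide series, and each ZT14 paradigm alone. Counts of splicing genes under these alternatives describe stability and are not read as results about these genes.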

Additional observations from a re-analysis of the deposited data

Results flagged for a closer look

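Among the named splicing genes, 30 groups of 4 pools were examined for a pool far from the other 3, and chance flags about 1 in 20 such groups. A single value stood apart. LSM11, a protein of the U7 snRNP, had -1.423 in late-night light pool 4, against -0.29, -0.18 and -0.31 in the other late-night light pools, a gap of 0.898 of the group's range. Its dark controls had -0.07, -0.36, -0.71 and -1.44. Light pool 4 is an array of the later slide series, as are dark pools 3 and 4, and the part of the slide series in this value was not tested.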

How the results depend on the processing

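The number of splicing genes called stayed 0 in all 19 alternatives for late-night light, the slide series as a block and within each series included (the later series has a single light pool, assumed to vary like the other groups, and says little about stability), and in all 21 for the late minus early effect. For early-night light it was 1 after quantile normalization and 1 after scaling to a common SD; for the long day it was 1 with 1 probe per gene and 1 to 2 with a pool left out; for light at ZT14 it was 0 to 2 with a pool left out. For ZT0 against ZT14 in darkness, with 8 called, it was 4 after quantile normalization, 3 with array weights, 4 with the compared arrays only, 5 after scaling, 0 against paradigm 2 alone, 13 against paradigm 3 alone, 2 to 12 with a pool left out, and 0 with the early slide series at ZT0, which was chosen after seeing the data. In light, with 2 called, it was 8 with 1 probe per gene, 0 against paradigm 2 alone, 8 against paradigm 3 alone and 2 to 4 with a pool left out. For paradigm 3 against paradigm 2 darkness, with 7 called, it was 0 after scaling, 1 with array weights, 0 after quantile normalization, 0 with the compared arrays only (5 at an unadjusted p under 0.05), 11 with 1 probe per gene and 3 to 10 with a pool left out. The share of all genes is not given beside most of these counts. They describe stability only and are not read as results about splicing genes. In paradigms 2 and 3, leaving out a pool leaves its group a single pool, assumed to vary like the other groups. LSM14A turned to -0.12 against paradigm 2 alone. Over all genes, the 369 calls of the long day were 0 with array weights, quantile normalization, scaling or the compared arrays only, and 1194 without dark pool 4. The 37 for light at ZT14 were 638 without that pool, the 2385 for ZT0 against ZT14 in darkness 866 after quantile normalization, the 1468 in light 727, and the 2583 between the dark paradigms 18. The cause was not tested, except that the compared arrays alone are fewer samples.

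Pool numbers were not taken to pair the samples. Deviations of same-numbered pools correlated with r of 0.308, 0.19, -0.000165 and 0.309 in paradigm 1 and 0.12 in paradigm 2, light pool 2 of paradigm 1 correlated best with dark pool 1 (r = 0.34), and the paradigm 3 groups share no number. With the pool number as a replicate block, 5 splicing genes were called for ZT0 against ZT14 in darkness, 3 in light and 0 in the light comparisons of paradigms 1 and 2. Among values of single named genes, 247 kept direction and side of the threshold, 72 lost the call, 6 gained it and 1 reversed. How far each spot stood above its background cannot be read from log ratios.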
